A study of Rattus norvegicus with 30 samples.

Results

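Aminoacyl-tRNA synthetases join each amino acid to its transfer RNA (tRNA) and so supply the substrates of protein synthesis. Their messenger RNAs were followed in rat hepatocytes exposed to methapyrilene, an antihistamine known as a liver toxicant and liver carcinogen in rats. The family was taken as 35 listed genes, 19 for cytosolic enzymes and 16 for mitochondrial enzymes, whose symbols end in 2. Each gene was read from a probe set annotated to that gene alone, and where a gene had several, from the probe set with the highest mean over all arrays. A usable probe set was found for 32 of the 35 genes, among 14217 genes with a probe set in the whole series. Lars2, Mars2 and Pars2 had none and were not analysed here. Of the 32, Nars2 stayed below the filter on low signal, with signals of 133 to 409 over the 30 arrays, which left 31 members (19 cytosolic and 12 mitochondrial) among 10222 genes tested. Aars2 passed the filter by the smallest margin allowed, with 5 arrays above their own median.

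The series measured 30 cultures with a rat expression array. All cells were frozen primary hepatocytes of male Sprague Dawley rats, bought from a supplier, thawed and kept on collagen under Matrigel, and dosed on day 3 of culture; the age and the number of the donor animals are not stated. Each of 6 groups had 5 cultures: vehicle (DMSO, labelled 1%), 3 uM methapyrilene and 100 uM methapyrilene, each harvested at 24 h and at 48 h. Treated and vehicle cultures shared the cell source, the medium and the DMSO. Every culture was a separate well, so the p-values below measure the spread between wells and not between animals.

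The values are probe set signals, an intensity on a linear scale made with MAS5 by the authors. A signal can be compared between arrays for the same probe set, but not between probe sets. Changes are given as log2 fold changes (treated minus vehicle, with the standard error, SE). A member was said to rise or fall where its p-value, adjusted over all 10222 genes with limma, was under 0.05. The hepatocyte label was checked against its markers: 8 of the 9 listed hepatocyte genes had a probe set, all 8 passed the filter, and their summed signal ran from 327829 to 487241 per array. The hepatocyte sums overlapped between 100 uM and DMSO cultures at both times, at 364199 to 460661 in 100 uM cultures and 385533 to 470742 in DMSO cultures at 24 h, and at 337985 to 382935 in 100 uM cultures and 373102 to 436368 in DMSO cultures at 48 h. Of the 8 genes, 0 rose at 100 uM, 4 fell at 24 h (Ass1, Cps1, Hnf4a and Tat) and 3 fell at 48 h (Ass1, Cps1 and Tat). Among all genes tested, 19.9% rose and 15.8% fell at 24 h, and 18.9% rose and 14.5% fell at 48 h. Markers of other liver cells were not at 0. The Kupffer cell and leukocyte list, with 8 of 9 genes on the array and 5 past the filter, summed to 16105 to 17725 in 100 uM cultures and 19204 to 23055 in DMSO cultures at 24 h. At 48 h it summed to 13317 to 16675 in 100 uM cultures and 18611 to 21677 in DMSO cultures. Within that list Cd68 rose while Cd14 and Lyz2 fell at both times. The lower Kupffer cell sum and the lower hepatocyte genes moved with every 100 uM result below, and their part in them was not tested. In such bulk RNA, fewer cells of a type and less RNA per cell cannot be told apart.

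Synthetases fall into structural classes I and II, and in mammals several cytosolic enzymes, together with the scaffold proteins encoded by Aimp1, Aimp2 and Eef1e1, form the multi-synthetase complex. When amino acids run short, uncharged tRNA activates the kinase Gcn2, which phosphorylates the initiation factor eIF2alpha and so raises translation of the transcription factor Atf4. In mouse and human cells Atf4 is known to bind composite C/EBP-ATF elements and to raise transcription of many cytosolic synthetase genes. Mitochondrial synthetases are made from nuclear genes, imported, and serve the translation of respiratory chain subunits. The symbol is only a guide to the compartment, since the human counterparts of Gars1 and Kars1 encode both a cytosolic and a mitochondrial enzyme.

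The promoters were searched for the letters of a C/EBP-ATF element, and for those of an E-box, which the pathway described above does not include. Neither feature depends on the expression values. RefSeq promoter sequences (build GRCr8, 250 bases before to 50 after the start) were matched for 33 of the 35 genes, with none for Gars1 and Rars1. The letters TTGCATCA, a C/EBP-ATF element, were searched on both strands (TGATGCAA on the other). They occurred in 7 of 17 matched cytosolic promoters and in 0 of 16 mitochondrial promoters, against 266 of 33469 promoters in all (0.795%). The letters CACGTG, an E-box that reads the same on both strands, occurred in 5 of 17 cytosolic promoters (Aars1, Farsb, Iars1, Tars1 and Vars1) and in 1 of 16 mitochondrial promoters (Ears2), against 6.42% of all promoters; no E-box shared bases with a C/EBP-ATF element in the cytosolic promoters. A match describes letters in a window and is not evidence of binding. Of the 7 cytosolic genes with TTGCATCA, 6 are shown with up to 11 bases on each side, 5′ to 3′ on the strand of the gene, with the element in capitals, because the changes of genes with the element are compared below with those of the other cytosolic genes.
Cars1, chr1:208225334-208225363 (-): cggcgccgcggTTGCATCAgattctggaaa
Tars1, chr2:62114811-62114840 (-): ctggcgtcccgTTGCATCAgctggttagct
Yars1, chr5:146820190-146820212 (+): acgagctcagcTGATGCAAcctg
Mars1, chr7:65023752-65023781 (-): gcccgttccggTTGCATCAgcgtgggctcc
Iars1, chr17:15193658-15193687 (-): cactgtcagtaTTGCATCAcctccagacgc
Nars1, chr18:60275778-60275807 (-): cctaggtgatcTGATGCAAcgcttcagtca

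Each of these 6 held the element once. In Mars1, Nars1, Iars1 and Tars1 its first base lay close upstream of the start, at positions -17, -14, -24 and -27. It lay downstream of the start in Cars1, at position 18, and in Yars1, at position 39.

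After 24 h at 100 uM, several cytosolic synthetase messages were higher than in vehicle cultures, led by Sars1, while mitochondrial ones showed little change in common. Of 19 cytosolic members, 9 rose (Sars1, Nars1, Rars1, Wars1, Aars1, Yars1, Gars1, Hars1 and Farsb), 1 fell (Mars1) and 9 did not pass the test. Of 12 mitochondrial members, 1 rose (Yars2), 1 fell (Cars2) and 10 did not pass. Over all genes tested, 19.9% rose and 15.8% fell in this comparison. The mitochondrial counts, 1 of 12 each way, are too small to set against those shares. The median log2 fold change was 0.15 for the cytosolic members and -0.02 for the mitochondrial members, beside 0.043 for all genes. All 5 treated arrays lay above all 5 DMSO arrays for 4 cytosolic members (Sars1, Nars1, Rars1 and Hars1) and for 0 mitochondrial members, against 14.4% of all genes. They lay below for Mars1 and Cars2, against 11.9% of all genes.

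**Figure D1:**
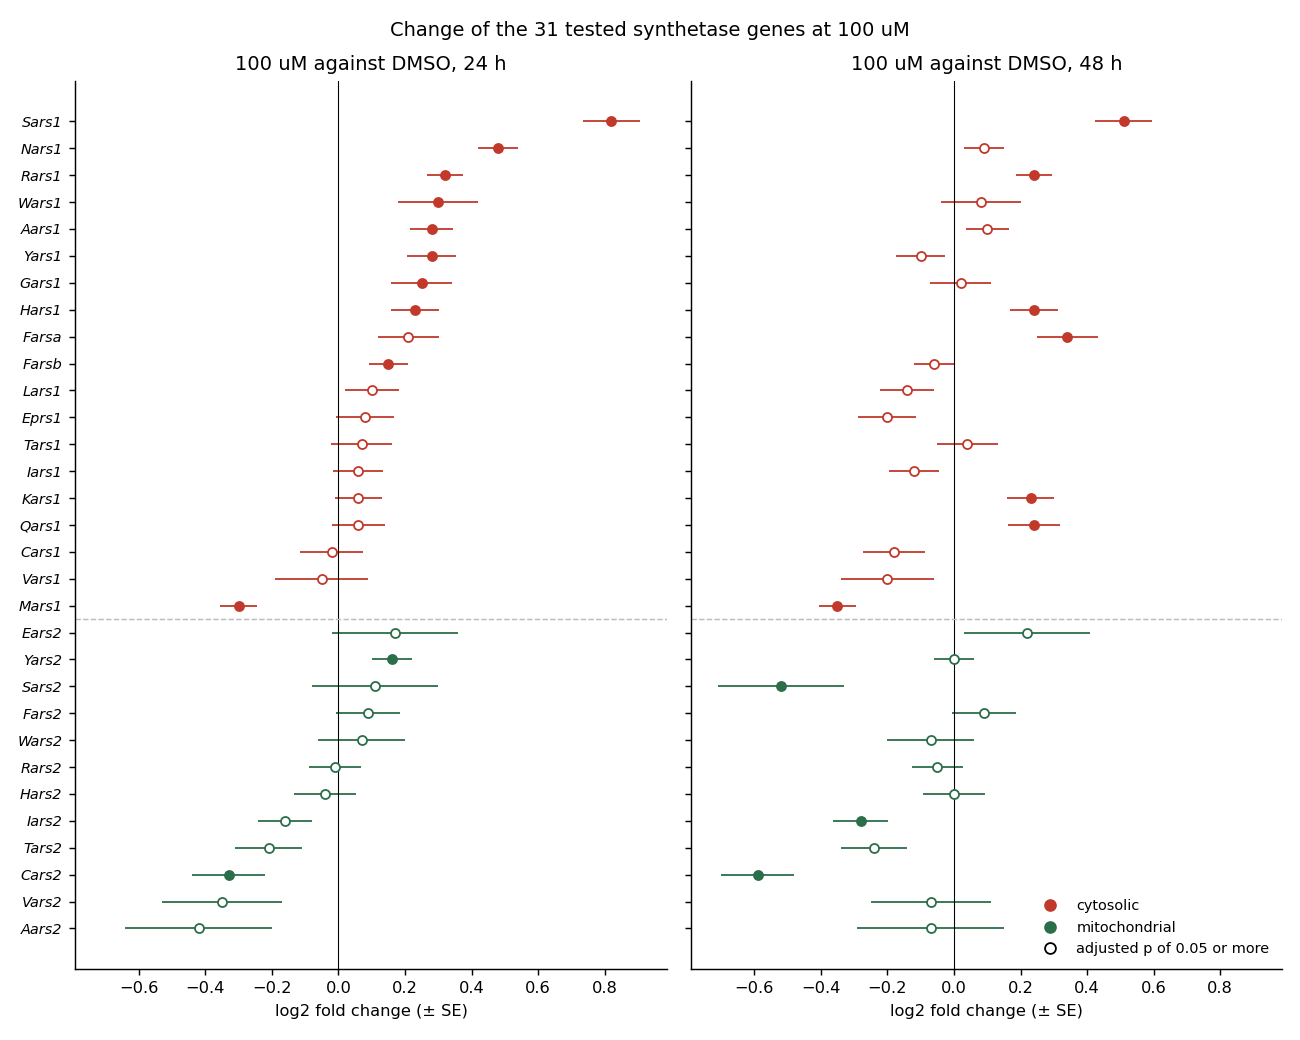
Log2 fold change (x axis, ± SE) of the 31 tested synthetase genes (y axis) in 100 uM against DMSO cultures at 24 h (left) and 48 h (right), 5 arrays per group. Filled points passed an adjusted p of 0.05; cytosolic genes (red, above the dashed line) reach 0.82 for Sars1 at 24 h, and Cars2 (green) lies lowest at 48 h, at -0.59.

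Sars1, the seryl-tRNA synthetase, changed most. At 24 h its signals were 8339, 8180, 8865, 7449 and 7108 in 100 uM cultures, against 4546, 3729, 5602, 4159 and 4743 in DMSO cultures. The lowest treated culture was above the highest vehicle culture. The log2 fold change was 0.82 ± 0.086 (1.76-fold, adjusted p = 2.23e-09). Nars1, the asparaginyl-tRNA synthetase, had signals of 20264, 21266, 21216, 20689 and 21068 in 100 uM cultures, against 14240, 14813, 14438, 16009 and 15331 in DMSO cultures. These groups too were fully apart, and the treated cultures were tightly grouped. Its log2 fold change was 0.48 ± 0.060 (1.40-fold, adjusted p = 6.09e-08).

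Rars1 encodes the arginyl-tRNA synthetase, a member of the complex. At 24 h it read 10981, 11155, 11622, 11096 and 10271 in 100 uM cultures and 8391, 8736, 9080, 8816 and 8985 in DMSO cultures. All treated cultures were higher, by 0.32 ± 0.053 on the log2 scale (adjusted p = 9.16e-06). Hars1, the histidyl-tRNA synthetase, read 3898, 4106, 3760, 4011 and 4210 in 100 uM cultures and 3312, 3173, 3556, 3334 and 3638 in DMSO cultures. The groups did not overlap, although the gap between them was narrow. The log2 fold change was 0.23 ± 0.071 (adjusted p = 0.00915).

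The other 5 cytosolic increases at 24 h came with overlapping groups. Aars1 (alanyl) rose by 0.28 and Yars1 (tyrosyl) by 0.28 on the log2 scale, with adjusted p = 5.98e-04 and 0.00322. Aars1 averaged 16492 ± 1369 in 100 uM cultures and 13574 ± 1401 in DMSO cultures (SD, n = 5 each). Smaller or less certain increases were those of Gars1 (glycyl, 0.25), Wars1 (tryptophanyl, 0.30) and Farsb (a phenylalanyl subunit, 0.15), with adjusted p between 0.0339 and 0.0475. Centring each array on its median ended these 3 calls while the log2 fold changes stayed close, at 0.21 for Gars1 (adjusted p = 0.145), 0.27 for Wars1 (adjusted p = 0.107) and 0.12 for Farsb (adjusted p = 0.335). Leaving out 1 of the 10 arrays compared ended the call in 6 fits for Gars1, 8 for Wars1 and 6 for Farsb.

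Mars1, the methionyl-tRNA synthetase of the complex, went against the other cytosolic genes that changed. Its signals at 24 h were 5971, 7070, 6789, 6331 and 6714 in 100 uM cultures, against 8032, 7866, 8526, 8073 and 8015 in DMSO cultures. Every treated culture was lower, and the log2 fold change was -0.30 ± 0.055 (1.23-fold lower, adjusted p = 3.78e-05). At 48 h they were 6837, 7093, 6035, 6908 and 6572 in 100 uM cultures and 8545, 9293, 8440, 8369 and 7973 in DMSO cultures. The groups were again apart, with a log2 fold change of -0.35 ± 0.055 (1.27-fold lower, adjusted p = 4.56e-06). A dimmer probe set of Mars1 gave -0.11 ± 0.20 at 24 h and -0.25 ± 0.20 at 48 h, and with the mean of the probe sets the 24 h value was -0.21 (adjusted p = 0.127).

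**Figure D2:**
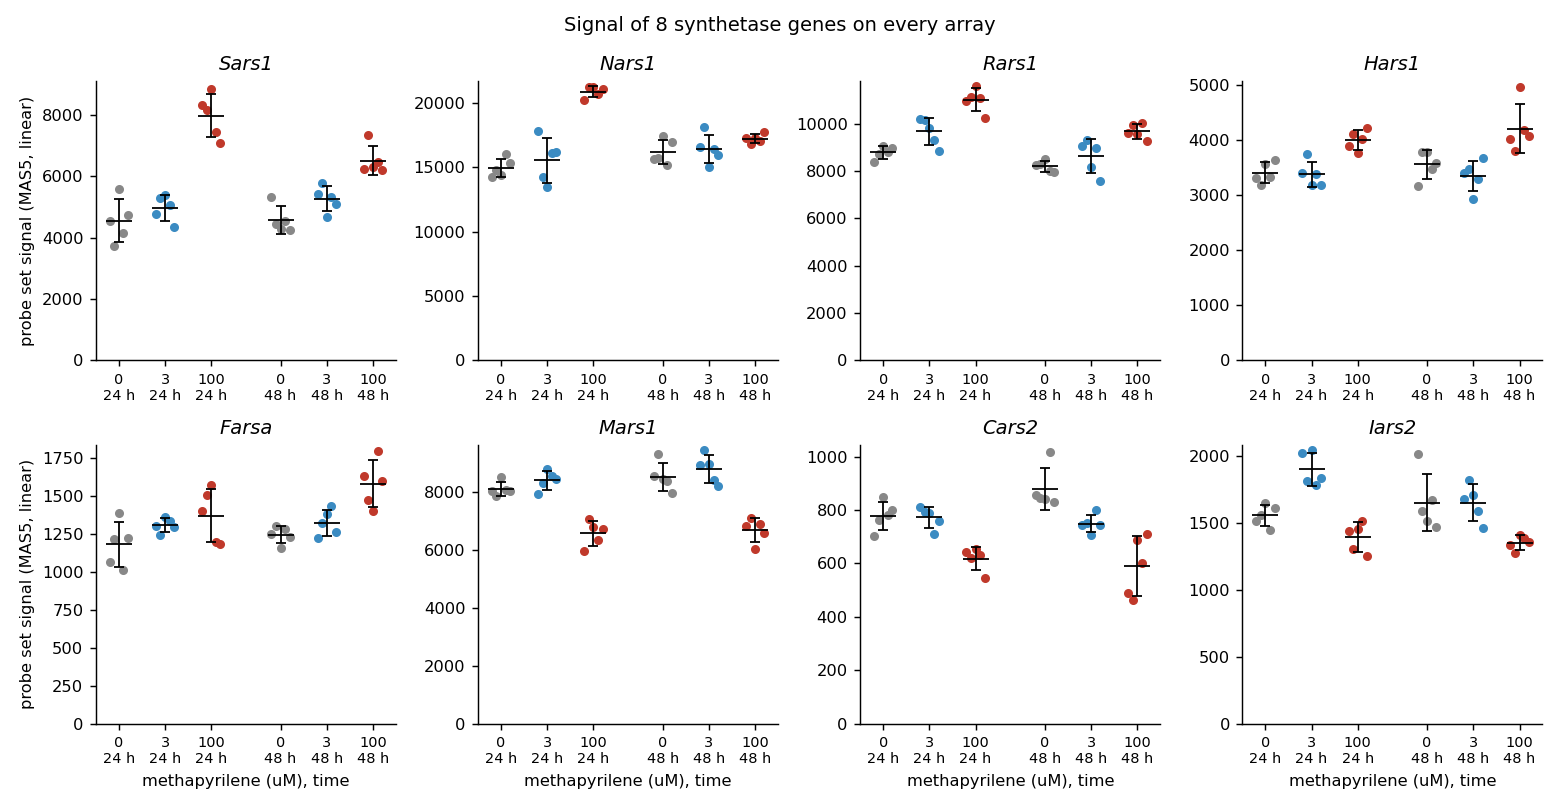
Probe set signal (y axis, linear from 0) of 8 synthetase genes on each array at 0, 3 and 100 uM methapyrilene and 24 or 48 h (x axis); points are cultures, and bars are the mean ± SD of 5. The 100 uM points (red) lie above the vehicle points (grey) for Sars1 at both times and below them for Mars1 and Cars2 at both times.

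After 48 h at 100 uM, the set of cytosolic genes that rose was only partly that of 24 h, and more mitochondrial genes were lower. Of 19 cytosolic members, 6 rose (Sars1, Farsa, Rars1, Hars1, Qars1 and Kars1), 1 fell (Mars1) and 12 did not pass. Among 12 mitochondrial members, 0 rose and 3 fell (Cars2, Sars2 and Iars2), while 9 did not pass. Over all genes, 18.9% rose and 14.5% fell. The median log2 fold change was 0.04 for cytosolic and -0.07 for mitochondrial members, beside 0.049 for all genes. Treated arrays lay wholly above vehicle arrays for 5 cytosolic members (Sars1, Farsa, Rars1, Hars1 and Qars1), against 15.8% of all genes. They lay wholly below for Mars1, Iars1, Cars2 and Iars2, against 12.1% of all genes. The count of cytosolic decreases depended on the 3 uM arrays of 24 h that share the estimate of the spread. Without replicates 1 to 3 of that group in the fit, a choice made after seeing the data, 4 cytosolic members fell, with Lars1 (-0.14, adjusted p = 0.0164), Eprs1 (-0.20, adjusted p = 0.0191) and Iars1 (-0.12, adjusted p = 0.0326) beside Mars1. With the actin 3′ to 5′ signal ratio of each array as a covariate 5 fell, Cars1 (-0.23, adjusted p = 0.0232) being the additional one.

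The calls of the cytosolic increases at 48 h, apart from that of Sars1, ended with median centring of the arrays, while their sizes changed little. Quantile normalisation, another change of scaling, kept all 6 calls. When each array was centred on its median, Sars1 alone of the 6 kept its call (log2 fold change 0.47, adjusted p = 0.00143). The other 5 then had log2 fold changes of 0.29 for Farsa (adjusted p = 0.0509), 0.19 for Hars1 (0.0636), 0.19 for Rars1 (0.0907), 0.19 for Qars1 (0.125) and 0.18 for Kars1 (0.17). The errors were larger with this centring, such as an SE of 0.083 for Rars1, against 0.053 with the deposited scaling. The same centring changed the share of increases among all genes called at 48 h to 44.7%, against 56.6% with the deposited scaling, and the 3 mitochondrial decreases and that of Mars1 were kept.

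At 48 h Sars1 had signals of 6253, 7357, 6311, 6465 and 6206 in 100 uM cultures, against 5343, 4449, 4274, 4542 and 4244 in DMSO cultures. The groups were apart, and the log2 fold change was 0.51 ± 0.086 (1.43-fold, adjusted p = 1.22e-05). Rars1 read 9612, 9942, 9567, 10040 and 9267 in 100 uM cultures and 8252, 8298, 8512, 7999 and 7966 in DMSO cultures. It too showed no overlap (0.24 ± 0.053, adjusted p = 5.81e-04). Hars1 read 4020, 3796, 4969, 4173 and 4068 in 100 uM cultures and 3157, 3774, 3786, 3474 and 3586 in DMSO cultures. Its lowest treated culture lay just above the highest vehicle culture (0.24 ± 0.071, adjusted p = 0.008).

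Farsa, the other phenylalanyl subunit, had signals of 1632, 1477, 1401, 1801 and 1603 in 100 uM cultures, against 1251, 1305, 1159, 1282 and 1232 in DMSO cultures at 48 h. All treated cultures were above the vehicle cultures, with a log2 fold change of 0.34 ± 0.092 (adjusted p = 0.00382). Farsb, with which Farsa forms the working enzyme, had -0.06 at 48 h (adjusted p = 0.477), and Farsa had 0.21 at 24 h (adjusted p = 0.0704). Thus a different subunit of the pair passed the test at each time; the difference between them was not tested.

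Qars1 (glutaminyl) and Kars1 (lysyl), both of the complex, passed at 48 h and not at 24 h. Qars1 read 5273, 5548, 5013, 5578 and 5285 in 100 uM cultures and 4759, 4490, 4433, 4844 and 4104 in DMSO cultures at 48 h, with no overlap (0.24 ± 0.079, adjusted p = 0.0183). Without DMSO replicate 5 its adjusted p was 0.062. In 100 uM cultures Qars1 averaged 5339 ± 232 at 48 h and 5448 ± 210 at 24 h, and in DMSO cultures 4526 ± 293 at 48 h and 5218 ± 203 at 24 h (SD, n = 5 each). For Kars1 (0.23 ± 0.070, adjusted p = 0.0105) the 100 uM means were 7578 ± 380 at 48 h and 7767 ± 320 at 24 h, and the DMSO means 6500 ± 814 at 48 h and 7437 ± 556 at 24 h. The treated means were thus close at both times, while the vehicle means at 48 h and 24 h gave log2 differences of -0.21 (adjusted p = 0.16) for Qars1 and -0.20 (adjusted p = 0.109) for Kars1, which did not pass. The test of the 100 uM effect at 48 h against 24 h passed for neither gene.

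Of the mitochondrial members, Cars2, the cysteinyl-tRNA synthetase, was lower at both times. Its signals at 24 h were 641, 621, 654, 630 and 546 in 100 uM cultures, against 701, 761, 847, 781 and 799 in DMSO cultures. All treated cultures were lower (-0.33 ± 0.11, adjusted p = 0.0213), though the adjusted p was 0.0636 without replicate 5 of the 100 uM cultures and 0.0545 without replicate 3 of the DMSO cultures. At 48 h they were 490, 463, 687, 601 and 711 in 100 uM cultures, against 858, 844, 841, 1017 and 829 in DMSO cultures. The treated cultures were again all lower but more scattered, and the log2 fold change was -0.59 ± 0.11 (1.51-fold lower, adjusted p = 9.78e-05).

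Iars2, the mitochondrial isoleucyl enzyme, read 1335, 1275, 1413, 1390 and 1359 in 100 uM cultures and 2015, 1594, 1516, 1675 and 1472 in DMSO cultures at 48 h. There was no overlap, and the log2 fold change was -0.28 ± 0.082 (adjusted p = 0.00737). At 24 h its log2 fold change was -0.16 (adjusted p = 0.127). Sars2, the mitochondrial seryl enzyme, fell by 0.52 on the log2 scale at 48 h (adjusted p = 0.0293) with overlapping groups, averaging 396 ± 77.5 in 100 uM cultures and 566 ± 98.3 in DMSO cultures. Its adjusted p was 0.102 or 0.0641 without replicate 4 or 5 of the 100 uM cultures, and 0.0622 or 0.0929 without replicate 1 or 4 of the DMSO cultures. Yars2 (mitochondrial tyrosyl) rose by 0.16 at 24 h (adjusted p = 0.0407), a call that ended in 8 of 10 fits that left out 1 array (adjusted p up to 0.114), and had -0.00 at 48 h.

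The remaining members did not pass at either time in the fit that gave the calls above, though some passed in other fits. Beside the 48 h decreases already named, Tars2 fell at 48 h with median centring (-0.28, adjusted p = 0.0429). It also fell at 48 h with quantile normalisation and with means of probe sets. Lars1 rose at 24 h with the actin ratio as a covariate (0.15, adjusted p = 0.0412). Among cytosolic genes the log2 fold changes at 24 h and 48 h were 0.10 and -0.14 for Lars1 (leucyl), 0.08 and -0.20 for Eprs1 (glutamyl-prolyl), and 0.06 and -0.12 for Iars1 (isoleucyl). They were 0.07 and 0.04 for Tars1 (threonyl), -0.02 and -0.18 for Cars1 (cysteinyl), and -0.05 and -0.20 for Vars1 (valyl). Aars1, Gars1, Nars1, Wars1 and Yars1, which had risen at 24 h, had 0.10, 0.02, 0.09, 0.08 and -0.10 at 48 h, and Kars1 and Qars1 had 0.06 each at 24 h. Among mitochondrial genes the values at 24 h and 48 h were -0.42 and -0.07 for Aars2, -0.35 and -0.07 for Vars2, and -0.21 and -0.24 for Tars2. They were 0.17 and 0.22 for Ears2, 0.09 and 0.09 for Fars2, and -0.01 and -0.05 for Rars2. Sars2 had 0.11 at 24 h. The dimmest of these had wide errors, such as an SE of 0.22 for Aars2, so the arrays could not show changes of this size for them.

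Hars1 and Hars2 lie head to head on the genome, and Hars1 rose at both times while Hars2 passed the test at neither. The 97 bases between their gene starts (RefSeq, GRCr8, + strand) are shown because they lie between a gene that rose and one that did not pass the test. They run between the outermost annotated starts, and the Hars2 transcript of the promoter table starts further downstream.
Hars1 to Hars2, chr18:28672713-28672809 (+): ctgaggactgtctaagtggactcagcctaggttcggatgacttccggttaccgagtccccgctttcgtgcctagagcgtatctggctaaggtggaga

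For Hars2 the signals in 100 uM cultures at 24 h averaged 1773 ± 151, against 1823 ± 220 in DMSO cultures (-0.04 ± 0.093, adjusted p = 0.808). At 48 h they averaged 1754 ± 166 in 100 uM cultures and 1755 ± 101 in DMSO cultures (-0.00 ± 0.093, adjusted p = 0.982), and at both times the groups overlapped. The difference in change between the 2 genes was not tested. RefSeq also lists a gene named Hars2l1 elsewhere in the rat genome, and whether the Hars2 probe set reads its message was not tested.

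A change in the same direction passed the test at both times for 3 members that rose (Sars1, Rars1 and Hars1) and 2 that fell (Mars1 and Cars2). The 3 that rose at both times were among 10 members higher at 24 h and 6 higher at 48 h. The 2 that fell were among 2 lower at 24 h and 4 lower at 48 h. The comparisons at 24 h and 48 h used different arrays, vehicle included. How many of all genes passed in the same direction at both times was not counted. These counts therefore do not show whether the members differ from other genes in this.

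Splitting the cytosolic genes by complex and by structural class gave the following counts, as a description of groups chosen with the values known. Of 12 genes outside the complex, 8 rose and 0 fell at 24 h (median 0.24), and of 7 in the complex, 1 rose (Rars1) and 1 fell (Mars1; median 0.06). At 48 h 3 of 12 outside (Farsa, Hars1 and Sars1) and 3 of 7 inside (Kars1, Qars1 and Rars1) rose, while 0 outside and 1 inside (Mars1) fell. By class, 6 of 9 class II genes and 3 of 9 class I genes rose at 24 h, and 4 of 9 and 2 of 9 at 48 h; Eprs1 holds a domain of each class and was left out of this split. Over all genes, 19.9% rose and 15.8% fell at 24 h, and 18.9% rose and 14.5% fell at 48 h. In the complex, the 1 of 7 that rose and the 1 of 7 that fell at 24 h were near that background. So was the 1 of 7 in the complex that fell at 48 h. The 3 of 12 outside the complex and 2 of 9 of class I that rose at 48 h were also near it. Mars1 was the 1 class I gene that fell at each time, and 0 class II genes fell.

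Among the 7 genes with TTGCATCA in the promoter, 3 rose at 24 h, Nars1 and Yars1 among them, and 1 fell (Mars1), with a median log2 fold change of 0.07 and a range of -0.30 to 0.48. Of the 10 matched cytosolic genes without it, 4 rose (Farsb, Hars1, Sars1 and Wars1) and 0 fell, with a median of 0.12. At 48 h the medians were -0.10 with the element (0 rose, 1 fell) and 0.16 without it (5 rose, 0 fell). Over all genes, 19.9% rose and 15.8% fell at 24 h and 18.9% rose and 14.5% fell at 48 h, so 1 of 7 falling was at the background at each time. Sars1, the member that changed most, had neither element in the 300 bases searched, and no match says only that these letters are not in this window.

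The change of the 100 uM effect between the times was tested directly. It passed for 1 member, Nars1, whose effect was lower at 48 h than at 24 h by 0.39 ± 0.084 on the log2 scale (a difference of -0.39, adjusted p = 0.00901), against 1.66% of all genes either way. At 48 h Nars1 had signals of 17293, 16798, 17266, 17031 and 17759 in 100 uM cultures, against 15660, 15726, 17462, 15152 and 16951 in DMSO cultures. These groups overlapped, unlike those at 24 h. Centring each array on its median left the difference at -0.41 but ended the call (adjusted p = 0.0883). The next members were Yars1 (-0.37, adjusted p = 0.0562) and Sars1 (-0.30, adjusted p = 0.289).

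Among 100 uM cultures themselves, 0 members were higher and 6 lower at 48 h than at 24 h (Gars1, Nars1, Rars1, Sars1, Yars1 and Yars2), against 5.03% of all genes higher and 4.45% lower. The largest were Gars1, which averaged 9002 ± 521 at 48 h and 11665 ± 870 at 24 h (-0.37 ± 0.092, adjusted p = 0.0069), and Yars1, at 6908 ± 365 at 48 h and 8574 ± 116 at 24 h (-0.31 ± 0.073, adjusted p = 0.00426). With median centring, or without replicate 3 of the 24 h cultures, 3 members were called. Among DMSO cultures 0 members differed between the times by limma at the adjusted threshold, and 2 (Qars1 and Kars1) did at an unadjusted p under 0.05. Over all genes, 4.48% did at the adjusted threshold. The share of all genes at the unadjusted threshold was not counted, so the 2 members have no background beside them.

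The 3 uM cultures at 24 h need a statement on RNA quality before their values. Replicates 1, 2 and 3 of that group had actin 3′ to 5′ signal ratios of 3.93, 5.10 and 5.30, against 2.34 to 3.43 on the other 27 arrays; replicates 4 and 5, at 2.91 and 3.28, lay within that range. A high ratio is a sign of shortened RNA. The cytosolic members moved with it: their median shift from the vehicle mean was 0.27, 0.23 and 0.26 on the arrays of replicates 1 to 3, and 0.094 and 0.063 on those of replicates 4 and 5.

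The same median over the cytosolic members was 0.17, 0.15, 0.096, 0.13 and 0.17 on the 100 uM arrays at 24 h, against -0.012, -0.042, 0.042, -0.037 and 0.036 on the DMSO arrays. Over the mitochondrial members it was -0.066, -0.058, -0.17, -0.11 and -0.090 on the 100 uM arrays at 48 h, against 0.032, -0.040, -0.008, 0.074 and -0.008 on the DMSO arrays. In both of these cases the treated arrays lay apart from the vehicle arrays, while the mitochondrial median at 24 h and the cytosolic median at 48 h overlapped between the groups.

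**Figure D3:**
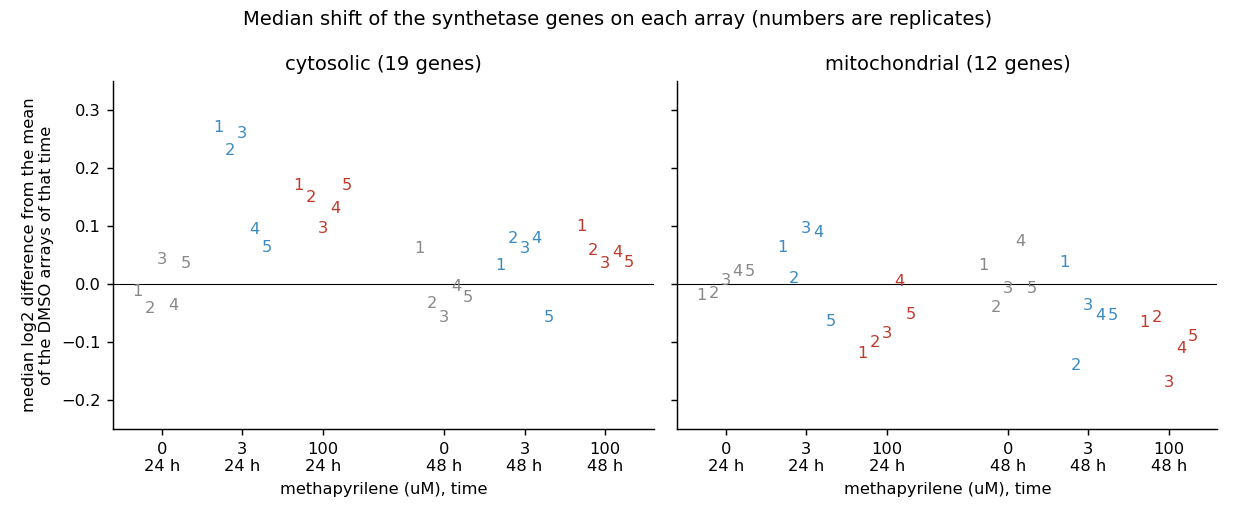
Median log2 difference from the mean of the DMSO arrays of the same time (y axis) over the cytosolic (left) and mitochondrial (right) members on each array, by dose and time (x axis); digits are replicates. At 3 uM and 24 h, cytosolic replicates 1 to 3 lie at 0.23 to 0.27, above replicates 4 and 5, and at 100 uM and 24 h the cytosolic shift is 0.096 to 0.17.

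With all 5 replicates, 6 members rose at 3 uM and 24 h (Cars1, Eprs1, Gars1, Lars1, Tars1 and Iars2) and 0 fell, against 2.99% of all genes rising and 1.22% falling. With replicates 4 and 5 alone, 0 of the 6 passed, and 0 passed with the actin ratio as a covariate. Of all 10222 genes, 0 rose and 4 fell with replicates 4 and 5 alone, and 0 rose and 1 fell with the covariate. The 0 calls among members are thus what these fits gave for nearly all genes. By limma with those 2 replicates, the log2 fold changes of the 6 were 0.01 for Gars1, 0.06 for Lars1, 0.16 for Eprs1, 0.19 for Cars1, 0.21 for Tars1 and 0.22 for Iars2, with adjusted p of 0.535 or more. For Iars2 the lowest 3 uM signal, 1786 in replicate 4, lay above the highest DMSO signal, 1651, so these groups did not overlap. Of all genes called at 3 uM and 24 h, 71% were higher with the deposited scaling, 90.9% with median centring and 60.5% with quantile normalisation.

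Eprs1, the bifunctional enzyme for glutamate and proline, had signals of 12230, 11150, 12274, 8161 and 9175 in 3 uM cultures, against 7228, 8295, 7775, 7347 and 8167 in DMSO cultures at 24 h. The first 3 cultures were far above the vehicle cultures, and the fourth was within their range. Over all 5 the log2 fold change was 0.43 ± 0.087 (adjusted p = 0.00708). Lars1 read 9331, 9138, 9969, 6411 and 6595 in 3 uM cultures and 5916, 6458, 6049, 6352 and 6324 in DMSO cultures, with the same split of the replicates (0.39 ± 0.081, adjusted p = 0.00807). Cars1 read 3605, 3683, 4859, 3428 and 3022 in 3 uM cultures and 3200, 2553, 2900, 2613 and 2863 in DMSO cultures, where replicate 5 overlapped the vehicle cultures and replicate 3 was highest (0.38 ± 0.094, adjusted p = 0.0206).

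Probe sets of the same gene differed in sign in this comparison. Of 13 members with more than 1 probe set past the filter, 8 had log2 fold changes of both signs at 3 uM and 24 h. Eprs1 had 0.43 by its brightest probe set and -0.43 by another, and Gars1 had 0.32 and -0.25. A dimmer probe set of Mars1 was lower (-0.69 ± 0.20, adjusted p = 0.0427 over probe sets), while the brightest gave 0.05. At 100 uM both signs occurred for 6 of 13 members at each time. The widest gap there was that of Wars2, the mitochondrial tryptophanyl enzyme, at 24 h, with 0.07 ± 0.12 by the brighter and -0.84 ± 0.34 by the dimmer probe set, neither of which passed. The brighter Wars2 probe set read 712, 619, 765, 764 and 795 in 100 uM cultures and 625, 746, 589, 742 and 795 in DMSO cultures, which overlapped fully; at 48 h its log2 fold change was -0.07.

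**Figure D4:**
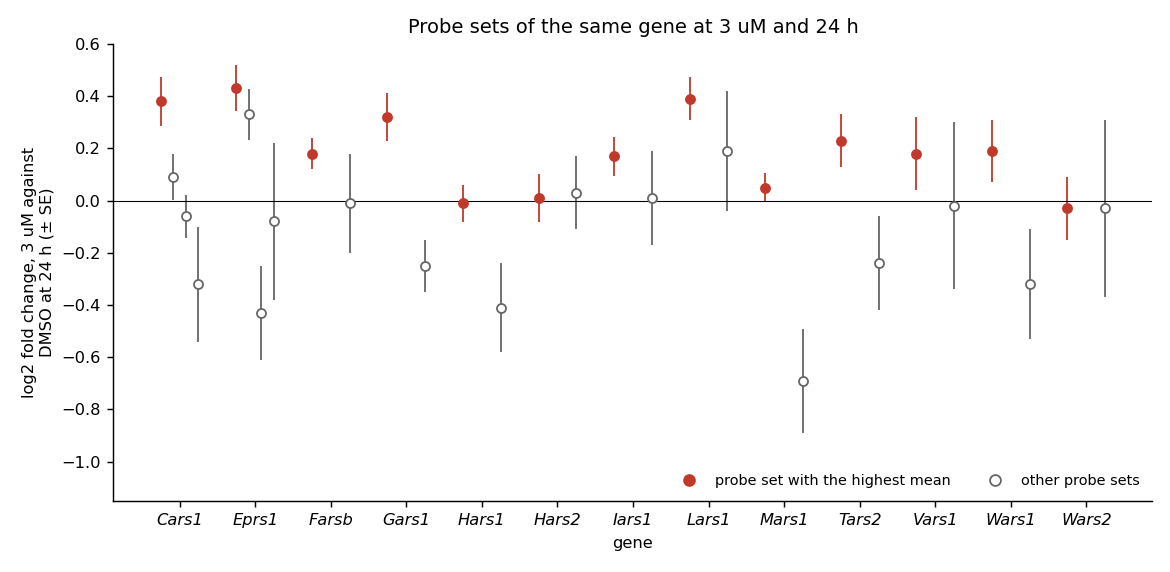
Log2 fold change (y axis, ± SE) in 3 uM against DMSO cultures at 24 h for every probe set of the 13 members with more than 1 (x axis). Red points are the brightest probe set of a gene and open points the others; Eprs1 has 0.43 by its brightest and -0.43 by another.

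At 3 uM and 48 h, 0 of 31 members passed by limma at the adjusted threshold, against 0.0391% of all genes. With limma 1 member (Sars1) had an unadjusted p under 0.05, and the share of all genes there was not counted. Sars1 averaged 5272 ± 408 in 3 uM cultures and 4570 ± 449 in DMSO cultures (SD, n = 5 each), with overlapping groups (0.21 ± 0.086, adjusted p = 0.955). The change of the 3 uM effect between the times passed by limma for 0 members and for 0 of all 10222 genes. At an unadjusted p under 0.05, the effect of 9 members was lower at 48 h. The share of all genes at that threshold was not counted. Those 9 included all 6 members called at 3 uM and 24 h. The test holds the same 24 h arrays that gave those calls, so this overlap is no separate support.

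The doses were also set against each other, with the same 100 uM arrays as above. At 48 h, 6 members were higher at 100 uM than at 3 uM (Farsa, Hars1, Kars1, Qars1, Rars1 and Sars1) and 6 were lower (Cars1, Eprs1, Lars1, Mars1, Cars2 and Iars2), against 28.8% of all genes either way. Sars1 averaged 6518 ± 479 in 100 uM cultures and 5272 ± 408 in 3 uM cultures (0.31 ± 0.086, adjusted p = 0.0062). Mars1 averaged 6689 ± 411 in 100 uM cultures and 8791 ± 496 in 3 uM cultures (-0.39 ± 0.055, adjusted p = 8.17e-07). At 24 h, 6 members were higher and 9 lower at 100 uM than at 3 uM, against 38.9% of all genes either way, with Cars1, Eprs1, Lars1, Mars1, Qars1, Tars1, Cars2, Iars2 and Tars2 lower. With 3 uM replicates 4 and 5 alone the balance was the other way, with 7 higher (Gars1, Hars1, Iars1, Nars1, Rars1, Sars1 and Yars2) and 2 lower (Mars1 and Iars2), so 2 of the 9 lower calls were kept. Lars1 and Qars1 had -0.29 and -0.20 over all replicates and 0.04 and 0.08 with replicates 4 and 5 alone. Sars1 had 0.68 ± 0.086 and Nars1 0.43 ± 0.060 in that comparison over all replicates.

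All 3 genes for the scaffold proteins that hold the multi-synthetase complex together rose at 100 uM at both times. Over all genes 19.9% rose at 24 h and 18.9% at 48 h, and 3 genes are too few to set against those shares. Aimp1 averaged 8114 ± 454 in 100 uM cultures and 5742 ± 411 in DMSO cultures at 24 h (0.50 ± 0.077, adjusted p = 3.16e-06), and Eef1e1 16768 ± 909 in 100 uM cultures and 11977 ± 231 in DMSO cultures (0.48 ± 0.067, adjusted p = 4.56e-07). Aimp2 rose by 0.38 at 24 h, and at 48 h the 3 rose by 0.48 (Aimp1), 0.36 (Eef1e1) and 0.29 (Aimp2). At 3 uM and 24 h Eef1e1 fell by 0.22 on the log2 scale (adjusted p = 0.0492), a comparison that holds the arrays with a high actin ratio.

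Genes that make and use tRNA were counted in the same way. Over all genes, 19.9% rose and 15.8% fell at 24 h, and 18.9% rose and 14.5% fell at 48 h. Of 14 listed genes of tRNA processing and export, 11 were tested; 9 rose and 0 fell at 24 h (median 0.23), and 6 rose and 0 fell at 48 h (median 0.21). They included Tsen15, a subunit of the tRNA splicing endonuclease (0.78 at 24 h and 0.43 at 48 h), Ssb, the La protein that binds new tRNA precursors (0.26 and 0.35), Dus1l, a dihydrouridine synthase (0.28 and 0.30), and Xpot, the tRNA exportin (0.23 and 0.37). Of 6 cytosolic elongation factor genes, 2 rose at 24 h and 3 at 48 h, among them Eef1d (0.39 and 0.31) and Eef1b2 (0.31 and 0.45), which recharge the factor that delivers tRNA to the ribosome, and Eef2 at 48 h (0.31). Of 4 mitochondrial elongation factor genes, 0 rose and 1 fell, Tufm, which delivers tRNA to the mitochondrial ribosome (-0.20 at both times). A count of 1 in 4 genes is too small to set against that background.

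Of 27 genes of the amino acid response, 13 rose and 4 fell at 24 h (median 0.23), and 5 rose and 8 fell at 48 h (median -0.09). Over all genes 19.9% rose and 15.8% fell at 24 h, and 18.9% rose and 14.5% fell at 48 h, so the 4 of 27 that fell at 24 h and the 5 of 27 that rose at 48 h were near the background. Ddit3, the stress transcription factor also called Chop, rose by 1.07 at 24 h and 1.11 at 48 h, and Slc3a2, the heavy chain of amino acid exchangers, by 0.56 and 0.48. Atf3, a stress-induced transcription factor, rose by 0.77 and 0.56, and Eif2s1, which encodes eIF2alpha, by 0.42 and 0.40. Asns, the asparagine synthetase and a known Atf4 target, rose at 24 h (0.45, adjusted p = 3.75e-06) and had 0.05 at 48 h (adjusted p = 0.651). Atf4 itself rose at 24 h (0.30, adjusted p = 0.00103) and had 0.02 at 48 h (adjusted p = 0.888). The serine pathway genes Psat1 and Phgdh had 0.08 and 0.09 at 24 h, where neither passed, and fell at 48 h (-0.30 and -0.31). Shmt2 (-0.40 and -0.32), the mitochondrial serine hydroxymethyltransferase, Atf5 (-0.38 and -0.75) and Chac1 (-0.20 and -0.55), which degrades glutathione, fell at both times, and Eif2ak3 fell at 24 h (-0.30) and had -0.10 at 48 h. The list held members in both directions at each time, and TTGCATCA occurred in 2 of its 26 matched promoters (Chac1 and Nupr1).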

How the data were processed

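RNA from 30 hepatocyte cultures was hybridised to rat arrays. The authors deposited 1 intensity per probe set, computed with MAS5 per the submitters' processing notes. The MAS5 version is not given in the sources used here, nor are detection calls. Array medians ran from 362 to 471. No depth applies, and the number of arrays limits the precision. Probe sets took the platform annotation's gene, with symbols updated through gene identifiers to RefSeq GRCr8; 20826 had 1 symbol, 436 several and 9780 none. Signals were log2 transformed without a pseudocount. Probe sets with at least 5 arrays above their own median were kept.

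A model of 6 group means over 30 arrays, which leaves 24 degrees of freedom, was fitted with limma 3.58.1 in R 4.3.3, with eBayes and a trend; p-values were two-sided and adjusted by Benjamini-Hochberg over 10222 genes per comparison. The script was tested on simulated data. Replicates were numbered in the order of deposit and not paired.

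Members and lists were chosen with earlier results of these data known. Signals of every array are given for members called at 100 uM whose groups did not overlap (up to 5 each way, time and class), up to 3 members called at 3 uM or between times, and the member whose probe sets differed most. Related lists are described by up to 3 called genes each way, or the 2 brightest where none passed; Phgdh, Atf4 and Asns were added after their values were seen. Alternatives changed the scaling, filter, floor, probe sets, variance model, arrays and thresholds. The promoter sequence of 1 gene is not reported here.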

Additional observations from a re-analysis of the deposited data

Results flagged for a closer look

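In 3 of 38 groups of 5 arrays checked, 1 array stood far from the others relative to the range of its group; chance alone does so in about 1 of 20 groups. Sars1 had a signal of 7357 in replicate 2 of the 100 uM cultures at 48 h, above the other 4 (6206 to 6465). Sars1 also had 5343 in replicate 1 of the DMSO cultures at 48 h, above the other 4 (4244 to 4542). Cars2 had 1017 in replicate 4 of the DMSO cultures at 48 h, above the other 4 (829 to 858). The calls of Sars1 and Cars2 at 48 h were kept when any single array of the groups compared was left out.

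The 100 uM effect on Nars1 differed between the times by the test of the difference itself, by -0.39 on the log2 scale (48 h minus 24 h), with all 5 treated cultures above all 5 vehicle cultures at 24 h and overlapping groups at 48 h.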

How the results depend on the processing

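Among called members, direction changed in 1 comparison, 100 uM against 3 uM at 24 h, where 5 decreases became values between 0.01 and 0.11 that did not pass. These were Lars1 (0.04) and Qars1 (0.08) with 3 uM replicates 4 and 5 alone, Qars1 (0.07) with the actin covariate, and Cars1 (0.08), Eprs1 (0.01) and Mars1 (0.11) with means of probe sets. Sars1, Nars1, Rars1, Hars1, Aars1 and Yars1 at 24 h and Sars1, Mars1, Cars2 and Iars2 at 48 h kept their calls at 100 uM under every alternative fit. Dim probe sets and 5 wells a group limit detection. Median centring ended 5 of 6 cytosolic increases at 48 h, while quantile normalisation kept all 6. Leaving out the arrays with a high actin ratio, which also leaves fewer arrays, ended the 6 calls at 3 uM and 24 h. The causes of these and the other changes were not tested. Replicate numbers follow the order of deposit and pair no samples by the labels. They coincide with runs of 6 array numbers that hold 1 array of each group, and the fit with that run as a block kept every count within 1.5 times and, among the members followed singly, ended the call of Wars1 at 24 h (0.30, adjusted p = 0.0646).

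Counts below are of members. Requiring a 1.5-fold change left, at 24 h and 100 uM, 1 cytosolic increase and 0 of the cytosolic decreases, mitochondrial increases and mitochondrial decreases. At 48 h it left 0 cytosolic increases, 0 cytosolic decreases and 1 mitochondrial decrease, and it left 0 at 3 uM and 24 h, 1 between doses at 24 h, 0 between doses at 48 h, 0 between times at 100 uM and 0 for the change of the 100 uM effect. An adjusted p under 0.01 left 0 mitochondrial members each way at 24 h, 2 at 3 uM and 24 h, 5 between doses at 48 h and 3 between times at 100 uM. Median centring left 0 mitochondrial increases at 24 h, 1 cytosolic increase at 48 h, 6 between doses at 48 h, 3 between times at 100 uM and 0 for the change of the 100 uM effect. It moved the cytosolic medians to 0.12 at 24 h and -0.01 at 48 h, and the mitochondrial median at 48 h to -0.12. Means of probe sets gave cytosolic and mitochondrial medians of 0.21 and -0.10 at 24 h, 0 cytosolic decreases at 24 h, 2 at 48 h, and 2 calls at 3 uM and 24 h.

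The actin covariate gave 5 cytosolic decreases and a cytosolic median of 0.01 at 48 h, 0 calls at 3 uM and 24 h, 7 between doses at 24 h, 1 between times in DMSO and 3 for the change of the 100 uM effect. Array weights gave 2 cytosolic decreases at 48 h, 2 calls between times in DMSO and 8 for the change of the 3 uM effect. They gave 13 calls at 3 uM and 24 h. Of all 10222 genes, 1600 rose and 1291 fell there with the weights, against 306 and 125 without them. The matching counts of all genes for the change of the 3 uM effect are not given here. Fitting only the groups compared gave 0 mitochondrial increases at 24 h and 3 cytosolic decreases at 48 h. It gave 0 calls at 3 uM and 24 h, where 0 of all genes rose and 0 fell. That fit also gave 1 call between times in DMSO and 2 for the change of the 100 uM effect. Requiring all 30 arrays above their median gave 2 for that change as well. With 3 uM replicates 4 and 5 alone there were 0 calls at 3 uM and 24 h and 9 between doses at 24 h. Leaving 3 uM replicates 1 to 3 out of the other comparisons, chosen after seeing the data, gave 4 cytosolic decreases at 48 h, 2 between times in DMSO and 3 for the change of the 100 uM effect.

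Leaving out single arrays gave 0 to 1 mitochondrial increases and 0 to 2 mitochondrial decreases at 24 h (0 without DMSO replicate 3), 1 to 2 cytosolic decreases and a cytosolic median of 0.00 to 0.06 at 48 h. It gave 1 to 12 calls at 3 uM and 24 h (1 without its replicate 3, 12 without its replicate 5), 3 to 6 between times at 100 uM, 0 to 1 in DMSO, 1 to 2 for the change of the 100 uM effect (2 without DMSO replicate 2 at 48 h) and 0 to 1 for that of the 3 uM effect.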

Other observations

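Enzymes that place selenocysteine on its tRNA, which is first charged with serine by the seryl-tRNA synthetase, changed in both directions at 100 uM. Of 6 listed genes, 1 rose and 2 fell at 24 h, and 2 rose and 2 fell at 48 h; over all genes, 19.9% rose and 15.8% fell at 24 h, and 18.9% rose and 14.5% fell at 48 h. Counts in a list this short are small, and the 1 of 6 that rose at 24 h was near that background. Sepsecs, which converts the charged intermediate to selenocysteinyl-tRNA, averaged 2537 ± 505 in 100 uM cultures and 3605 ± 225 in DMSO cultures at 24 h (SD, n = 5 each). Its log2 fold change was -0.53 ± 0.12 at 24 h (adjusted p = 5.13e-04 by limma) and -0.56 ± 0.12 at 48 h (adjusted p = 2.75e-04). Sephs2, which makes the selenium donor, fell by 0.30 at 24 h and by 0.25 at 48 h on the log2 scale. Secisbp2, which binds selenoprotein messages, rose by 0.37 and 0.36, and Pstk, the kinase that prepares the intermediate, rose by 0.24 at 48 h.

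Of 4 genes that complete mitochondrial glutaminyl-tRNA and initiator tRNA, Mtfmt, the methionyl-tRNA formyltransferase, fell at 24 h (-0.27 ± 0.073, adjusted p = 0.00326) and had -0.13 at 48 h. Gatc, a subunit of the glutaminyl-tRNA amidotransferase, rose at 48 h (0.35 ± 0.083, adjusted p = 9.92e-04). Of 5 synthetase-like and proofreading genes, 0 passed at 24 h by limma, where the brightest were Dtd1 (0.06) and Dtd2 (0.14). At 48 h 2 rose, namely Aarsd1, which edits mischarged alanyl-tRNA (0.33), and Dtd1, which removes D-amino acids from tRNA (0.22). Over all genes, 19.9% rose and 15.8% fell at 24 h, and 18.9% rose and 14.5% fell at 48 h. Counts in these short lists are too small to set against those shares.

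Summed marker signals of the remaining liver cell types were as follows. The sinusoidal endothelial list, with 1 of 5 measured genes past the filter, summed to 971 to 1666 in 100 uM cultures and 829 to 1448 in DMSO cultures at 24 h. The stellate cell and fibroblast list summed to 3001 to 3646 in 100 uM cultures and 2829 to 3248 in DMSO cultures at 24 h. The groups of both lists overlapped at 24 h. The cholangiocyte list, with 2 of 5 measured genes past the filter, summed to 11090 to 11967 in 100 uM cultures and 9925 to 11037 in DMSO cultures at 24 h, and to 11063 to 12023 in 100 uM cultures and 12600 to 13594 in DMSO cultures at 48 h. The groups did not overlap at either time, and the 100 uM sums were higher at 24 h and lower at 48 h. Of the 2 genes past the filter, Epcam rose at 24 h and Krt19 did not pass. Their median log2 fold change was -0.47, so sum and median went opposite ways at 24 h. At 48 h both genes fell (median -0.82). The part of these cells in the synthetase changes was not tested.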
